A study of Mus musculus with 6 samples.

Results

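Endothelial cells (ECs) trade fluid and solutes with tissue through membrane pores and pits, and 8 genes that build those structures were followed in kidney ECs with and without the Notch mediator Rbpj. The genes were chosen by name: Plvap, Cav1, Cav2, Cavin1, Cavin2, Cavin3, Ehd2 and Pacsin2, which are 8 of the 55401 genes listed in the count table. All 8 were among the 18438 genes that passed the filter on low counts. CD31-positive, CD45-negative cells were sorted from kidneys of male mice carrying floxed Rbpj alleles (Rbpjf/f), 3 mice with the Cdh5CreERT2 transgene (genotype Cre +/-, RbpjΔEC) and 3 littermates lacking Cre (genotype Cre -/-, CTRL), with 1 library for each mouse. Every mouse, controls included, received 5 injections of 1.5 mg tamoxifen at 8 weeks of age, and organs were taken 12 weeks after induction, with a labelled age of 21 weeks. In this line the Cdh5 promoter drives the inducible Cre in endothelium of all kinds, lymphatic vessels included, so no vascular bed was targeted alone.

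Caveolae are small flask-shaped pits of the plasma membrane. Caveolins insert into the inner leaflet of the membrane, cavins form a coat over them from the cytosol, and accessory proteins shape the neck and hold the pit at the surface. Fenestrae are pores that pass through thin endothelium, and in many capillaries each pore is spanned by a diaphragm built from PLVAP, the protein that also forms the diaphragm at the mouth of endothelial caveolae. In the kidney, peritubular capillaries and ascending vasa recta carry diaphragmed fenestrae, the fenestrae of adult glomerular capillaries mostly lack the diaphragm, and arteries and descending vasa recta have continuous endothelium.

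The genes lie at 7 separate places of the mouse genome (GRCm38, GENCODE M21), since Cav2 (ENSMUSG00000000058.6, chr6:17281185-17289115, plus strand) and Cav1 (ENSMUSG00000007655.16, chr6:17306335-17341452, plus strand) are neighbours. Plvap (ENSMUSG00000034845.6) occupies chr8:71497765-71511752 on the minus strand. Cavin1 (ENSMUSG00000004044.9) is at chr11:100956733-100970887 on the minus strand, Cavin2 (ENSMUSG00000045954.7) at chr1:51289126-51302960 on the plus strand and Cavin3 (ENSMUSG00000037060.3) at chr7:105480083-105482300 on the minus strand. Ehd2 (ENSMUSG00000074364.6) spans chr7:15946958-15967567 and Pacsin2 (ENSMUSG00000016664.16) spans chr15:83375607-83464606, both on the minus strand. All 8 are protein-coding. Cavin3 shares 374 exonic bases with Gm45667 on the opposite strand, and whether the counting used strand was not given in the sources used here. Gm45667 was counted at 1.35 CPM in CTRL and 1.56 CPM in RbpjΔEC. No other member shared exonic bases with another gene in this annotation.

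Start-site windows are shown for the 3 genes whose levels did not overlap between the genotypes (Cav1, Cavin2 and Ehd2, below) and for Cav2, the neighbour of Cav1 whose levels did overlap. RefSeq windows on GRCm38.p6 matched 6 of the 8 members, and each holds 300 bases, of which 250 precede the start site. Capitals mark TGGGAA, the core of the sequence that RBPJ binds, searched on both strands, and no other motif is marked. The windows lie at chr6:17306085-17306384 (plus strand) for Cav1, chr6:17280935-17281234 (plus strand) for Cav2, chr1:51288876-51289175 (plus strand) for Cavin2 and chr7:15967486-15967785 (minus strand) for Ehd2.
Cav1: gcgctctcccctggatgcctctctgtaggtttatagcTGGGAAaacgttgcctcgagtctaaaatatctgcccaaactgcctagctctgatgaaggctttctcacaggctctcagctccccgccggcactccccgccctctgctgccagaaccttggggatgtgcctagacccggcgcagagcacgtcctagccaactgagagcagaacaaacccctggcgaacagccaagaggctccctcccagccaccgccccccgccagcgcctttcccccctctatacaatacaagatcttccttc
Cav2: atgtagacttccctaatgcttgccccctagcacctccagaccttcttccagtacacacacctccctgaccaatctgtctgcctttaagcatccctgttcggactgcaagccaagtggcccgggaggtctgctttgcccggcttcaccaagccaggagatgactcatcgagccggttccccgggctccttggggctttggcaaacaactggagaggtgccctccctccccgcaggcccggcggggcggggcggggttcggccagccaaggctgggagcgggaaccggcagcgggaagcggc
Cavin2: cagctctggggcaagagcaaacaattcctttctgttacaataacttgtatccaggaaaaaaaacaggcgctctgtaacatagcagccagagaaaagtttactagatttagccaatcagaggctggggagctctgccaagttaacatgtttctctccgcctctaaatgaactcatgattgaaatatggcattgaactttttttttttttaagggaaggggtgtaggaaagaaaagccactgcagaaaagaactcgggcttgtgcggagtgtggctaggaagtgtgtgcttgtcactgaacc
Ehd2: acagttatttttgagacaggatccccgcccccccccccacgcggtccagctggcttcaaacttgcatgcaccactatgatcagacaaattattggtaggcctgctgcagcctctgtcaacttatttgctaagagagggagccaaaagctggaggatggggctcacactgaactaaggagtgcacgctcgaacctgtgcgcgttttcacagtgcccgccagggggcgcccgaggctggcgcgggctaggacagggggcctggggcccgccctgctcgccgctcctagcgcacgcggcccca
Where the table holds several windows for a gene, the one nearest to its annotated start was taken and the others were not searched. Of the 6 windows taken, that of Cav1 held TGGGAA and the other 5 did not, with 1 match in Cav1 on the plus strand that began 213 bases before the start site (position -213, with the start site as 0). The same letters occurred in 25.6% of the 32851 windows of the table. A match in a window of this size is a description of the letters and shows neither binding nor a cause. The windows also differed in composition, from 43.3% G and C for Cavin2 to 66.7% for Cavin1.

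Each library held between 39649171 and 47726850 counts on genes, so 3 counts corresponded to 0.0634 to 0.0749 CPM (read counts relative to library size, on the usual CPM scale, with edgeR's TMM factors). The least abundant member still had 2952 counts in its lowest library (Cav1 in RbpjΔEC 3). CTRL 1 registered 33764 genes with a count, where the remaining 5 libraries had 25629 to 26785. Rbpj itself was at 29.2 CPM in CTRL and 28.2 CPM in RbpjΔEC. Its counts cover the whole gene and not the floxed part alone, so in these counts the genotype rests on the labels. The paper reported recombination of the Rbpj locus in this mouse line, and lower Hey1 and Jag1 in the sorted ECs. The Notch target Hey1 was at 19.7 CPM in CTRL and 11.7 CPM in RbpjΔEC (log2 fold change -0.76, adjusted p = 0.0722, edgeR). In RNA from pooled sorted cells, fewer cells of a type and less RNA per cell cannot be told apart.

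None of the 8 genes passed an adjusted p of 0.05 between the genotypes (quasi-likelihood test of edgeR, Benjamini-Hochberg adjustment over all 18438 genes). All 8 had lower mean levels in RbpjΔEC than in CTRL, by 7.08% for Plvap up to 20.6% for Cav1, where 48.9% of all tested genes had a log2 fold change below 0. With libraries scaled on pan-endothelial genes (below) 4 of the 8 were lower. The plot of CPM by library shows the 6 values of each gene. Over all tested genes, 209 or 1.13% were called in either direction and 103 or 0.559% were called lower. The 209 became 21 to 700 without 1 library in turn. Before adjustment, at p under 0.05, 4 of the 8 members were lower (Cav1, Cavin2, Ehd2 and Cavin1) against 8.62% of all tested genes. For 3 members every RbpjΔEC library lay below every CTRL library, which held for 11.6% of all tested genes. DESeq2's Wald test called 0 of the 8 as well, with 4 lower before adjustment, while edgeR with no low-count filter called 3 lower. The 4 lower before adjustment became 7 without CTRL 2, 6 without RbpjΔEC 2, 6 with no low-count filter and 0 with pan-endothelial scaling, and 3 or 4 in the other alternatives.

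**Figure D1:**
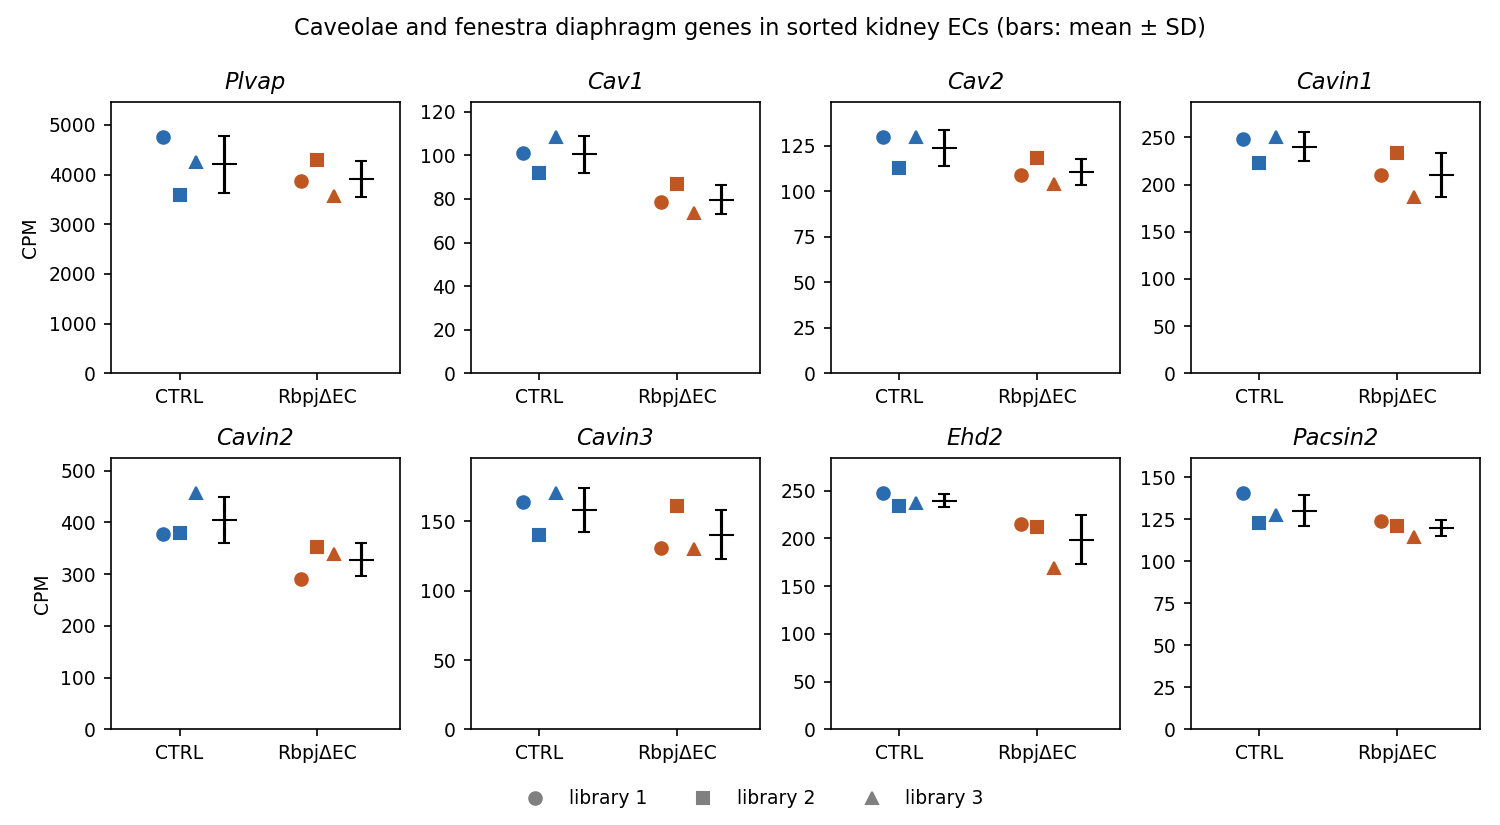
CPM of each gene (vertical axis, starting at 0) in the 3 CTRL libraries (blue) and the 3 RbpjΔEC libraries (orange), with the mean and SD of each group beside the points and the marker shape giving the library number. Cav1, Cavin2 and Ehd2 have no overlap between the groups, while Plvap spans 3562 to 4293 CPM in RbpjΔEC within the CTRL range of 3596 to 4753 CPM but for its lowest library.

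Plvap encodes the diaphragm protein and was by far the most abundant member. Its levels were 4753, 3596 and 4259 CPM across CTRL 1 to 3, against 3862, 4293 and 3562 CPM across RbpjΔEC 1 to 3. The groups overlapped, with RbpjΔEC 1 and 2 above CTRL 2 and RbpjΔEC 2 also above CTRL 3. CTRL averaged 4203 ± 581 CPM and RbpjΔEC 3905 ± 368 CPM (SD, n = 3 each). The log2 fold change of Plvap was -0.11 (SE 0.109, where SE is the standard error, 95% interval -0.35 to 0.13, adjusted p = 0.658, edgeR). The interval leaves room for a change of either sign, and the value was -0.01 without CTRL 1 and -0.21 without CTRL 2. Plvap alone took between 0.357% and 0.468% of all counts in a library and ranked 12 among the tested genes by CPM.

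Cav1 encodes the main structural protein of endothelial caveolae, without which the pits do not form. Its levels were 101, 91.8 and 108 CPM across CTRL 1 to 3, against 78.5, 86.9 and 73.7 CPM across RbpjΔEC 1 to 3, with every RbpjΔEC library below every CTRL library. The means were 100.4 ± 8.32 CPM (SD, n = 3) and 79.7 ± 6.71 CPM (SD, n = 3). With all 6 libraries Cav1 had both the largest difference and the smallest p among the members. Cavin2 had a larger difference than Cav1 without CTRL 1 or RbpjΔEC 3, and Ehd2 without RbpjΔEC 1. Without CTRL 3 Ehd2 and Cav1 were level at -0.28. The log2 fold change of Cav1 was -0.33 (SE 0.0851, 95% interval -0.52 to -0.15), with an unadjusted p of 0.00208 and an adjusted p of 0.0820 in edgeR's quasi-likelihood test. DESeq2's Wald test gave Cav1 an adjusted p of 0.0504. Without CTRL 2, the CTRL library with the lowest Cav1, edgeR's adjusted p was 0.0337, and over all 6 fits that left out 1 library it ranged from 0.0337 to 0.273.
Cav2 encodes the partner caveolin, which depends on caveolin-1 to reach the cell surface. Cav2 was at 129.8, 113 and 129.7 CPM across CTRL 1 to 3, against 109, 118 and 104 CPM across RbpjΔEC 1 to 3. The groups overlapped at CTRL 2 and RbpjΔEC 2. The log2 fold change of Cav2 was -0.17 (SE 0.0798, with an adjusted p = 0.307 by edgeR).

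The cavins differed from each other in the size of the difference. Cavin1, the coat protein needed for caveolae in all tissues, was at 248, 223 and 250.3 CPM across CTRL 1 to 3, against 210.1, 234 and 186 CPM across RbpjΔEC 1 to 3. RbpjΔEC 2 lay above CTRL 2, and the log2 fold change was -0.19 (SE 0.0877, with an adjusted p = 0.278 by edgeR). Without RbpjΔEC 3 the log2 fold change of Cavin1 was -0.11. Cavin2, which is abundant in endothelium and acts in shaping the coat, was at 378, 379 and 456 CPM across CTRL 1 to 3, against 291, 352 and 339.9 CPM across RbpjΔEC 1 to 3. The Cavin2 groups did not overlap. The log2 fold change of Cavin2 was -0.30 (SE 0.0955, 95% interval -0.51 to -0.09, adjusted p = 0.136, edgeR). Cavin3, a further coat protein, was at 164, 140.1 and 170.03 CPM across CTRL 1 to 3, against 130.4, 161 and 129.8 CPM across RbpjΔEC 1 to 3. Its groups overlapped, with a log2 fold change of -0.17 (SE 0.10, with an adjusted p = 0.408 by edgeR), and without RbpjΔEC 2 it was -0.28.

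Ehd2 and Pacsin2 act at the neck of the pit. Ehd2 encodes an ATPase that rings the neck and restrains caveolae from detaching. Its levels were 247, 234 and 238 CPM across CTRL 1 to 3, against 215, 212 and 169 CPM across RbpjΔEC 1 to 3, without overlap and with RbpjΔEC 3 well below the other mutant libraries. The log2 fold change of Ehd2 was -0.27 (SE 0.0897, 95% interval -0.47 to -0.07, adjusted p = 0.153, edgeR). Without RbpjΔEC 3 it was -0.17. Pacsin2 encodes a membrane-bending F-BAR protein that also serves other endocytic routes. Pacsin2 was at 141, 123 and 128 CPM across CTRL 1 to 3, against 124, 121 and 115 CPM across RbpjΔEC 1 to 3, where RbpjΔEC 1 lay just above CTRL 2. The log2 fold change of Pacsin2 was -0.12 (SE 0.0729, with an adjusted p = 0.427 by edgeR), and without CTRL 1 it was -0.06.

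**Figure D2:**
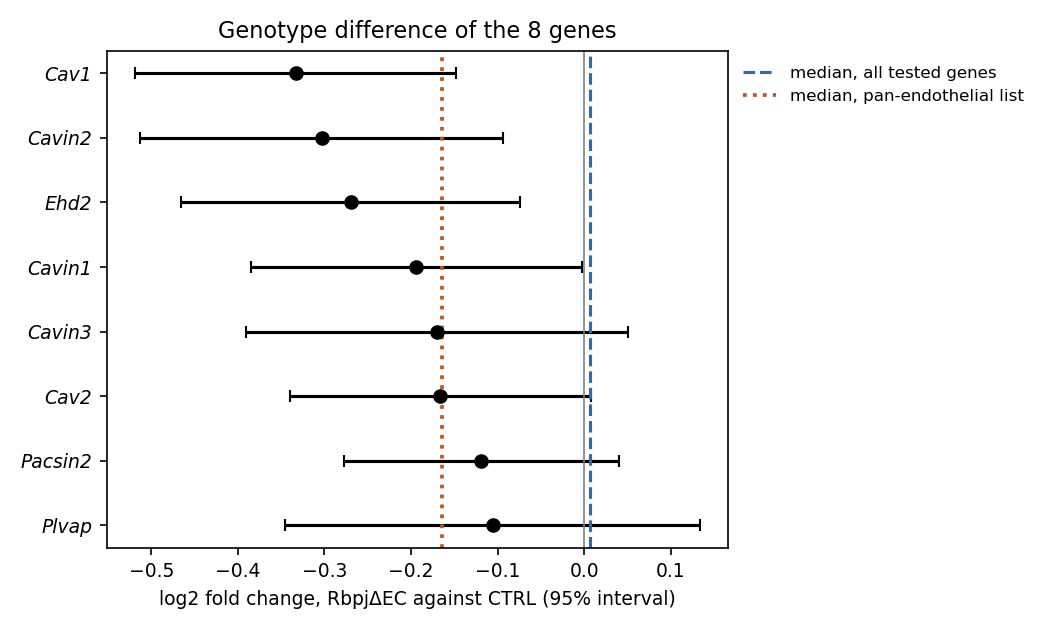
Log2 fold change of each gene in RbpjΔEC against CTRL (horizontal axis) with its 95% interval from the edgeR fit on 3 libraries against 3. The dashed line is the median over all tested genes (0.01) and the dotted line that over the pan-endothelial list (-0.16). All 8 points lie left of 0, and the intervals of Cav1, Cavin2, Ehd2 and Cavin1 exclude 0 before adjustment.

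The median log2 fold change over the 8 members was -0.18, beside 0.01 over all tested genes, and it was -0.12 without RbpjΔEC 3 and -0.28 without RbpjΔEC 2. The low end of each genotype was mostly the same library. CTRL 2 was the lowest CTRL library for 7 of the 8 genes and the lowest for 34.8% of all tested genes. RbpjΔEC 3 was the lowest mutant library for 7 of the 8 genes (34.9% of all tested genes) and RbpjΔEC 2 the highest for 6 (34.4%). The highest CTRL library was split, CTRL 1 for 4 genes and CTRL 3 for 4. The 1 exception at both low ends was Cavin2, lowest in CTRL 1 and in RbpjΔEC 1. Relative to the CTRL mean, the median of the 8 genes was 0.05, -0.12 and 0.06 on the log2 scale across CTRL 1 to 3, against -0.19, -0.08 and -0.26 across RbpjΔEC 1 to 3. RbpjΔEC 2 thus lay within the CTRL range of this median. The 7 members other than Plvap summed to 1303 to 1480 CPM in CTRL and 1118 to 1285 CPM in RbpjΔEC.

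A ratio of 2 genes within a library does not depend on the scaling between libraries, so each member was also set against Cav1 in its own library. Cav1 had the largest difference of the members, so a higher ratio of the other members in RbpjΔEC restates that difference and is no separate result. For 5 of the 7 ratios every RbpjΔEC library was higher than every CTRL library, which held for 42.9% of the other tested genes set against Cav1 in the same way. The largest was Plvap over Cav1, with log2 ratios of 5.55, 5.29 and 5.30 across CTRL 1 to 3, against 5.62, 5.63 and 5.60 across RbpjΔEC 1 to 3. The ratios of Pacsin2, Cav2, Cavin3 and Cavin1 to Cav1 were higher by 0.22, 0.17, 0.16 and 0.14 on the log2 scale, without overlap. Each of these 5 gave p = 0.1 in a two-sided exact permutation test, the smallest p that 3 libraries against 3 allow, and 0.14 after Benjamini-Hochberg adjustment over the 7 ratios, so none could pass 0.05. The ratios of Cavin2 and Ehd2 to Cav1 overlapped, with differences of 0.03 (exact permutation p = 1) and 0.06 (exact permutation p = 0.6). All 7 ratios share the Cav1 counts and are not independent of each other.

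**Figure D3:**
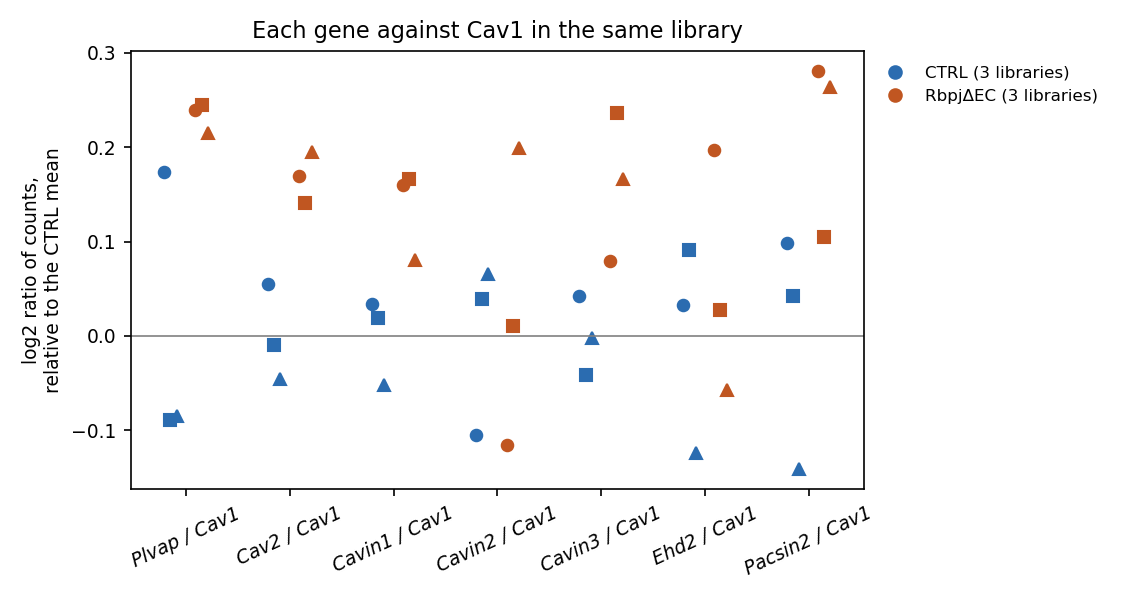
Log2 ratio of each gene's counts to the Cav1 counts of the same library, drawn relative to the mean of the 3 CTRL libraries (vertical axis), for CTRL (blue) and RbpjΔEC (orange), with the marker shape giving the library number. The orange points lie above all blue points for Plvap, Cav2, Cavin1, Cavin3 and Pacsin2, and mix with them for Cavin2 and Ehd2.

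Levels between genes were compared as CPM per kilobase of exonic sequence. In CTRL, Plvap was at 2115 ± 292 CPM per kilobase (SD, n = 3), 16.0 times Cavin2, the next member, and ranked 9 among the tested genes on this scale. Below Plvap came Cavin2 (132 ± 14.6), Cavin3 (95.02 ± 9.47), Cavin1 (67.0 ± 4.25), Ehd2 (46.8 ± 1.36), Cav2 (37.2 ± 2.97), Cav1 (29.2 ± 2.42) and Pacsin2 (26.5 ± 1.88), each in CPM per kilobase (SD, n = 3). In CTRL only the last 2 neighbours, Cav1 and Pacsin2, overlapped between libraries. In RbpjΔEC the same order held down to Cav2, while Cav1 (23.1 ± 1.95) came below Pacsin2 (24.4 ± 0.951) with overlapping libraries, and Cavin2 overlapped Cavin3, and Ehd2 overlapped Cav2. Cavin2 was 4.54 times Cav1 in CTRL and 4.64 times in RbpjΔEC on the per-kilobase scale. These levels use the union of annotated exons, so a gene whose long isoforms are little used is placed too low.

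Of 12 listed relatives, 10 were tested and 0 passed the adjusted threshold, with 1 lower and 0 higher before adjustment (p under 0.05) in edgeR and a median log2 fold change of -0.12. The muscle forms were near the floor, with at most 4 counts of Cav3 in any library and Cavin4 between 0.0892 and 0.399 CPM. Ehd3, the paralog of Ehd2 that marks glomerular ECs, was at 884, 1096 and 1127 CPM across CTRL 1 to 3, against 640.2, 746 and 813 CPM across RbpjΔEC 1 to 3. The Ehd3 groups did not overlap (log2 fold change -0.50, adjusted p = 0.0611, edgeR). DESeq2's Wald test called Ehd3 lower (adjusted p = 0.000867). With edgeR it was called without CTRL 1 (adjusted p = 0.0372), without RbpjΔEC 3 (0.0225) and with no low-count filter, but not without any other library. Ehd4, another paralog, averaged 1153 ± 152 CPM in CTRL and 1041 ± 36.3 CPM in RbpjΔEC (SD, n = 3 each), with overlapping libraries. Dnm2, the ubiquitous dynamin that cuts vesicles from the membrane and was chosen after its values were seen, had a log2 fold change of 0.03.
A further list held receptors, kinases and enzymes described in or beside caveolae. Of 12, 1 was called by edgeR and was lower (4 by DESeq2, and 0 lower and 2 higher, Gpihbp1 and Yes1, by edgeR with pan-endothelial scaling), 5 were lower and 1 higher before adjustment (p under 0.05), and the median was -0.07. The called gene was Prkca, a protein kinase C, at 19.3, 20.5 and 21.3 CPM across CTRL 1 to 3, against 13.8, 11.8 and 13.7 CPM across RbpjΔEC 1 to 3. Prkca fell by 0.64 on the log2 scale (adjusted p = 0.0191, edgeR), a call lost without CTRL 3, RbpjΔEC 1 or RbpjΔEC 2 (adjusted p up to 0.0929). Bmpr2, a BMP receptor, had a log2 fold change of -0.39 without overlap (adjusted p = 0.0602, edgeR). Nos3, the endothelial nitric oxide synthase that binds caveolin-1 and was chosen after its values were seen, had a log2 fold change of -0.09 (adjusted p = 0.674, edgeR).

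All 9 tested genes of the list for fenestra formation were lower, 8 of them before adjustment (p under 0.05), and 1 passed the adjusted threshold by edgeR (5 by DESeq2, and by edgeR 6 with no low-count filter, 0 with library size alone and 0 with pan-endothelial scaling), with a median log2 fold change of -0.27. The called gene was Anxa2, an annexin that links membrane to actin. Anxa2 was at 253, 229 and 276 CPM across CTRL 1 to 3, against 199.4, 199.2 and 188 CPM across RbpjΔEC 1 to 3 (log2 fold change -0.37, adjusted p = 0.0468, edgeR). With pan-endothelial scaling Anxa2 was at -0.18 (adjusted p = 0.179, edgeR). The call of Anxa2 was lost in 5 of the 6 fits without 1 library, all but that without CTRL 2 (adjusted p up to 0.184). Rdx, which encodes the membrane-actin linker radixin, had a log2 fold change of -0.27 without overlap (adjusted p = 0.0896, edgeR). The VEGF receptor genes of the list, chosen after their values were seen, were lower without overlap and without passing. They were Kdr (log2 fold change -0.27, adjusted p = 0.106), Flt1 (-0.24, adjusted p = 0.137) and the coreceptor Nrp1 (-0.35, adjusted p = 0.0975), all from edgeR. Mfsd2a, a lipid transporter that limits caveolar uptake in the brain, had at most 5 counts in any library and was not tested. Clathrin coat genes, the other main route of uptake, had 11 of 12 lower, 0 called in edgeR and a median of -0.08, with 3 lower and 0 higher before adjustment (p under 0.05). Cltc, the clathrin heavy chain, had the smallest p among them (log2 fold change -0.25, adjusted p = 0.0982, edgeR), followed by the light chain Cltb (-0.23, adjusted p = 0.123).

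**Figure D4:**
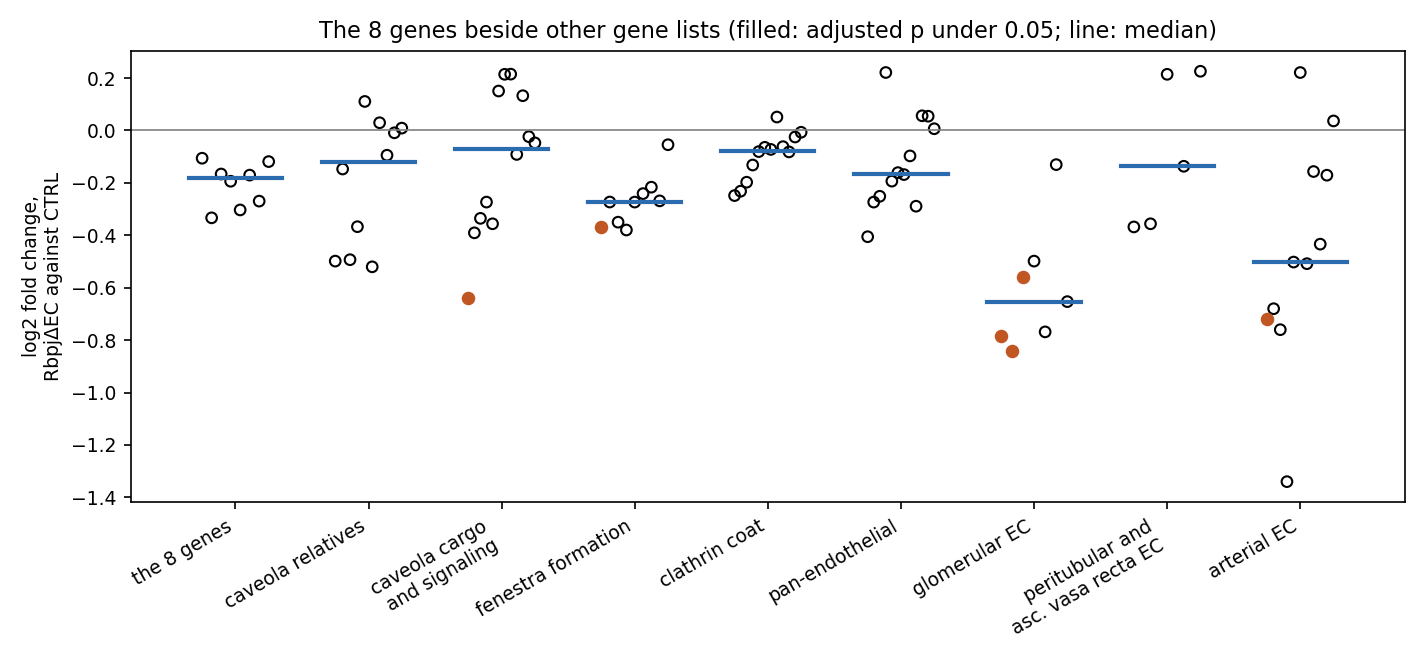
Log2 fold change in RbpjΔEC against CTRL (vertical axis) of the 8 genes and of the tested genes of 8 other lists, 1 point for each gene, filled where edgeR's adjusted p was under 0.05, with a bar at the median. The members center at -0.18, near the pan-endothelial list at -0.16, while the glomerular EC and arterial EC lists center lower, at -0.65 and -0.50.

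Endothelial identity was checked on a list of 12 genes taken as pan-endothelial. They summed to 17083 to 19189 CPM in CTRL and 15973 to 16225 CPM in RbpjΔEC. The sum was lower in every mutant library, and the median log2 fold change of these genes was -0.16, with 0 called in edgeR and 3 lower and 1 higher before adjustment (p under 0.05). Of the 12, 8 were lower and 4 higher, the higher being Egfl7 (0.22), Erg (0.06), Robo4 (0.05) and Esam (0.01). Ptprb, the most abundant, averaged 5258 CPM in CTRL and 4418 CPM in RbpjΔEC, so abundant genes weigh most in the sum. Eng, a TGF-beta coreceptor, and Emcn, a sialomucin of capillaries and veins, had the smallest p (log2 fold changes -0.41 and -0.27, adjusted p = 0.0660 and 0.106, edgeR). With libraries scaled on the sum of these 12 genes instead of by TMM, the median over the 8 members was 0.01 and that over all tested genes 0.19. On that scale Cav1 was at -0.14, Cavin2 at -0.11 and Ehd2 at -0.08, while Plvap was at 0.09, Pacsin2 at 0.07, Cav2 at 0.02 and Cavin3 at 0.02 (adjusted p between 0.304 and 0.908, edgeR). The direction of Plvap, Pacsin2, Cav2 and Cavin3 thus turned with the choice of scaling, and Cavin1 stayed just under 0 at -0.0045. With either scaling all 8 members lay below the median over all tested genes. The part of endothelial content in the lower member levels was not tested.

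**Figure D5:**
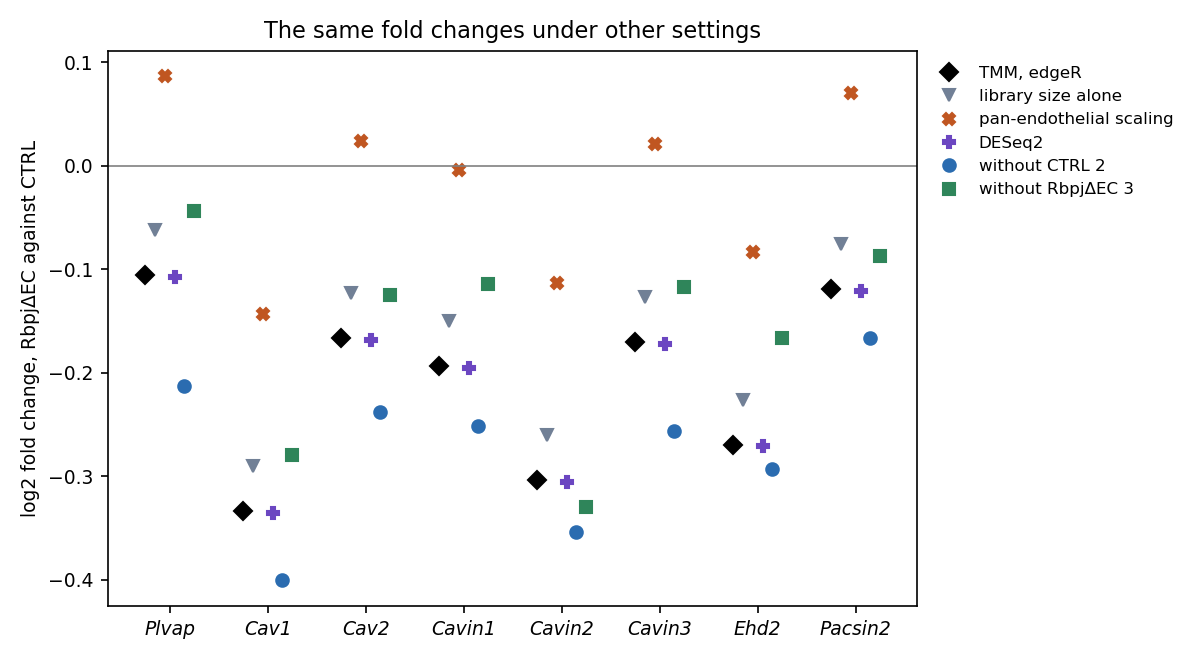
Log2 fold change of each gene in RbpjΔEC against CTRL (vertical axis) under 6 settings, each with its own marker. Scaling on pan-endothelial genes lies highest for every gene and above 0 for Plvap, Cav2, Cavin3 and Pacsin2.

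Markers of single vascular beds were counted list by list, and the lists were not tested against each other. Of 7 glomerular EC genes, all were lower, with 3 called by edgeR (4 by DESeq2, and by edgeR 0 without CTRL 3 and 6 without RbpjΔEC 3) and a median log2 fold change of -0.65. The called genes were Gata5 (log2 fold change -0.79, adjusted p = 0.0154), Lpl (-0.84, adjusted p = 0.0212) and Tbx3 (-0.56, adjusted p = 0.0281), in edgeR. With pan-endothelial scaling Tbx3 was at -0.37 and lost its call (adjusted p = 0.0824, edgeR). The list summed to 1996 to 2484 CPM in CTRL and 1370.04 to 1778 CPM in RbpjΔEC. Markers of the beds with diaphragmed fenestrae, peritubular capillaries and ascending vasa recta, summed to 2256 to 2787 CPM in CTRL and 2376 to 2655 CPM in RbpjΔEC, and 0 of 5 passed in edgeR, with 2 lower and 0 higher before adjustment (p under 0.05). Igfbp7 and Cd36 had the smallest p in that list (log2 fold changes -0.37 and -0.36, adjusted p = 0.0611 and 0.217, edgeR). The list had 3 genes lower and 2 higher, the higher being Gpihbp1 (0.21) and Igfbp3 (0.23), both with overlapping libraries. Scaled on pan-endothelial genes, edgeR called 0 of the list lower and 1 higher, Gpihbp1 (0.41, adjusted p = 0.0499), and with no low-count filter it called 2 lower. These sums overlapped between the genotypes, as did the levels of Plvap. For descending vasa recta 0 of 4 genes were called in edgeR (1 lower and 0 higher before adjustment (p under 0.05)), led by Scin (log2 fold change -0.45) and Aqp1 (-0.67). Without CTRL 1 Scin was at -0.63 and was called (adjusted p = 0.0332, edgeR), as it was with no low-count filter. The arterial list summed to 2462 to 2659 CPM in CTRL and 2234 to 2312 CPM in RbpjΔEC, with 9 of 11 genes lower, 1 called by edgeR, 7 lower and 1 higher before adjustment (p under 0.05) and a median of -0.50. The higher gene was Dll4, a Notch ligand, with every RbpjΔEC library above every CTRL library (log2 fold change 0.22, adjusted p = 0.162, edgeR). DESeq2 called 6 arterial genes lower, while edgeR called 0 without CTRL 1, CTRL 3 or RbpjΔEC 1. Without RbpjΔEC 3 edgeR called 4 of them lower, and with no low-count filter 5. Fbln5, which encodes an elastic fibre protein, was the called arterial gene (log2 fold change -0.72, adjusted p = 0.0227, edgeR), followed by the connexin gene Gja4 (-0.68, adjusted p = 0.0622). Of 5 tested venous genes 1 was called, Vwf (log2 fold change -0.75, adjusted p = 0.00691, edgeR), and Ephb4 had -0.22. The list had 2 genes lower and 3 higher and a median of 0.07, with Aplnr at 1.02, Selp at 0.13 and Nr2f2 at 0.07, all overlapping. Of 4 tested lymphatic genes 0 were called in edgeR (2 lower and 0 higher before adjustment (p under 0.05)), with the smallest p for Ccl21a (log2 fold change -1.47) and Lyve1 (-1.19), which averaged 2.39 and 1.25 CPM in CTRL. Prox1 (0.17, without overlap) and Flt4 (0.01) were higher, and the list summed to 609 to 695 CPM in CTRL and 636 to 671 CPM in RbpjΔEC. Nearly all of that sum was Flt4, at 682, 597 and 622 CPM across CTRL 1 to 3. Across RbpjΔEC 1 to 3 Flt4 was at 624, 659 and 636 CPM.

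Other cells that express caveolae genes were also measured. Mural cell genes, of smooth muscle and pericytes, summed to 249 to 294 CPM in CTRL and 189 to 225 CPM in RbpjΔEC, with 10 of 10 tested genes lower and a median log2 fold change of -1.12. Most of the sum was Mylk (log2 fold change -0.15, adjusted p = 0.325, edgeR), and the 9 other tested genes summed to 87.4 to 114 CPM in CTRL and 36.1 to 58.1 CPM in RbpjΔEC. The 3 called mural genes were Acta2 (-1.30, adjusted p = 0.0369), Myh11 (-1.08, adjusted p = 0.0468) and Rgs5 (-0.88, adjusted p = 0.0468), in edgeR. The 3 became 0 without CTRL 1 or RbpjΔEC 1, and 8 without RbpjΔEC 3 or with no low-count filter. With only genes of at least 1 CPM in 3 libraries Acta2 alone stayed called (Myh11 adjusted p = 0.0506, Rgs5 0.0523, edgeR), and Rgs5 also lost its call with library size alone (adjusted p = 0.0553) and with pan-endothelial scaling (0.0625). Stromal genes summed to 4.63 to 7.08 CPM in CTRL and 1.54 to 2.92 CPM in RbpjΔEC, with 3 of 6 genes tested and 1 called, Pdgfra (log2 fold change -1.67, adjusted p = 0.0468, edgeR), followed by Col1a2 (-1.83). The fat cell markers Adipoq, Plin1, Lep, Cidec and Retn had at most 12 counts in any library, and Fabp4, the only tested gene of that list, is also an endothelial gene (log2 fold change -0.03, adjusted p = 0.824, edgeR). Tubule and podocyte genes summed to 275 to 414 CPM in CTRL and 96.8 to 366 CPM in RbpjΔEC, with 0 of 8 called in edgeR and 2 lower and 0 higher before adjustment (p under 0.05), with the smallest p for Aqp2 (log2 fold change -2.77) and Umod (-1.19). Without RbpjΔEC 3 edgeR called 2 of the list lower. The proximal tubule genes Slc34a1 (1.28) and Lrp2 (1.27) went the other way, with RbpjΔEC 3 the highest library at 73.5 and 129 CPM. Leukocyte genes summed to 14.3 to 15.3 CPM in CTRL and 23.3 to 28.2 CPM in RbpjΔEC, where Cd68 was called (log2 fold change 1.27, adjusted p = 0.0154, edgeR) and Ptprc, which encodes CD45, had a log2 fold change of -1.44. The higher sum was that of Cd68, since the 3 other tested genes summed to 1.92 to 6.73 CPM in CTRL and 1.18 to 2.94 CPM in RbpjΔEC. The list median was -0.56, and Lyz2 had -1.25. By DESeq2, 1 gene was called lower in each of the relatives, clathrin, peritubular, venous and lymphatic lists, 2 in the pan-endothelial and stromal lists, 7 in the mural list and 0 in the descending vasa recta and tubule lists. All 12 genes called by edgeR in any of the lists lost the call in at least 1 of the 6 fits that left out 1 library, Vwf in 1 (without RbpjΔEC 1, adjusted p = 0.0635, edgeR) and the others in 2 to 5. The part of mural and stromal RNA in the levels of the 8 genes was not tested.

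As a description of pattern, the 5 genes whose log2 CPM tracked Plvap most closely over the 6 libraries, among 10442 tested genes with a mean of at least 5 CPM, were Slain2, Clip3, E2f5, Slc24a3 and Rnf187, with Pearson's r between 0.974 and 0.986. For Cav1 they were Sdcbp, Rpl8, Ncstn, Idh2 and Sem1, with r between 0.994 and 0.997. The points share libraries, depth and genotype, so no test was made.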

How the data were processed

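Libraries of stranded total RNA from sorted kidney ECs, 3 CTRL and 3 RbpjΔEC, were sequenced in a common run. The authors trimmed with Trim Galore 0.6.4, aligned with STAR 2.6.1d to GRCm38.p6 and counted with featureCounts (Subread 1.6.4) on GENCODE M25, and deposited whole-number read counts for each gene, without normalization. Groups came from the sample titles. These counts were scaled (TMM) and tested with edgeR 4.0.16 under R 4.3.3 (filterByExpr, glmQLFit with robust estimation, glmQLFTest), with Benjamini-Hochberg adjustment over 18438 genes and a threshold of 0.05. Log2 CPM used a prior count of 2 and ratios 0.5. The fit was tested on simulated counts, with a pass criterion set after its first results. There the share of edgeR's calls that were false was above the nominal rate, so calls near 0.05 are less certain than their adjusted p. DESeq2 made more false calls than edgeR on the same simulated counts. DESeq2 1.42.0 was an alternative, as were other scalings, filters, a replicate block and each library left out. Exonic lengths and positions came from GENCODE M21, which holds 55141 of the 55401 genes. The 8 members and the 16 gene lists were chosen with earlier results of these data known. Some lists share genes, namely Kdr, Cd36, Gpihbp1 and Ehd3, so their counts are not separate results. Named genes were the members, the called genes or the 2 smallest p of each list, and the 5 most like Plvap and Cav1. All other genes named with a value were chosen after their values were seen. No 2 libraries had identical counts. Depth was 39649171 to 47726850 counts per library.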

Additional observations from a re-analysis of the deposited data

How the results depend on the processing

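Scaling on pan-endothelial genes changed the members most. It turned the log2 fold changes of Plvap (0.0868), Cav2 (0.0243), Cavin3 (0.0211), Pacsin2 (0.0699) and Ehd4 (0.0464) above 0, and moved the median of the members to 0.0083 and that of all tested genes to 0.19. Fabp4 turned to 0.15 under it and to 0.0091 with library size alone. With no low-count filter, 3 members were called lower, Cav1 (-0.33, adjusted p = 0.00475), Cavin2 (-0.30, adjusted p = 0.00506) and Ehd2 (-0.26, adjusted p = 0.0246), in a fit over 38324 genes by edgeR, and the cause was not tested. Without 1 library in turn, between 0 and 1 members were called lower (Cav1 without CTRL 2, -0.40), and the log2 fold change of Cav1 was between -0.40 and -0.28.
Over all tested genes, 103 lower and 106 higher calls became 719 and 717 with no filter, 56 and 595 with pan-endothelial scaling, 322 and 262 with DESeq2, and 13 to 333 and 7 to 401 without 1 library in turn. Library size alone gave 82 lower and 159 higher and moved the median of all genes to 0.05. With the replicate block, 178 were lower and 166 higher and 0 members were called (adjusted p of Cav1 0.104, edgeR). The replicate numbers share no stated origin, and deviations of same-numbered libraries had correlations of 0.02, 0.01 and 0.01, so the block was not used elsewhere. The ratios to Cav1 were recomputed with a prior count of 5 and without each library, and those of Cavin2 and Ehd2 took either sign without 1 library in turn (-0.05 to 0.10 and -0.01 to 0.11) while the other 5 stayed higher. Depth did not limit the members, while Cav3, Pacsin1 and Mfsd2a were too low to test.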
